A study of Mus musculus with 8 samples.

Results

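Mitochondrial ribosomal proteins were taken as the genes of the deposited table whose symbol starts with Mrpl or Mrps followed by a digit. The rule found 77 of 21878 genes, and it used no measured value. They were followed in 8 RNA sequencing libraries that the labels describe as mouse pulmonary endothelial cells from lung, 4 with the treatment Ad-KLK8 and 4 with the treatment Ad-control. KLK8 is a secreted serine protease of the kallikrein family, and the series concerns this protease and the lung endothelium in endotoxemia. The comparison asked how the transcripts differed between cells labelled Ad-KLK8 and cells labelled Ad-control. The labels do not expand the prefix Ad, and strain, age, dose, time and the origin of the replicates (cultures or animals) are not stated by the labels. If the replicates share a culture or an animal, the p-values below measure technical spread.

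The mitochondrial ribosome sits in the matrix, bound to the inner membrane, and makes the few hydrophobic respiratory chain and ATP synthase subunits that mitochondrial DNA encodes. Its ribosomal RNAs come from mitochondrial DNA, whereas every one of its proteins is encoded in the nucleus, made in the cytosol and imported. Part of these proteins have homologs in the bacterial ribosome, and the rest are found only in mitochondria, where they surround a core with shortened ribosomal RNA. The cytosolic ribosome, which translates nuclear messages, shares none of these genes.

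Levels are RPKM, the reads of a gene per kilobase of its length, scaled by the size of the library, as deposited. The values were whole multiples of what 1 read was worth, which gave 17775433 to 18692134 reads per library labelled Ad-KLK8 and 15758696 to 16747740 per library labelled Ad-control. A member had 112 to 1537 reads in a library, with a median of 446.5. Klk8 itself had 1159, 3263, 1354 and 1276 RPKM in Ad-KLK8 replicates 1 to 4, against 1135, 1403, 1232 and 1422 RPKM in Ad-control replicates 1 to 4. The groups overlapped, and the gene in the treatment's name did not separate them (difference of 0.31 in mean log2(RPKM + 1), two-sided exact permutation p = 0.657 over 70 arrangements, the smallest possible being 0.0286). Without Ad-KLK8 replicate 2 the difference was −0.036. The names Ad-KLK8 and Ad-control below, also of replicates, therefore stand for what the libraries are labelled, and every direction rests on labels that the Klk8 level did not bear out. Of 10 endothelial markers 8 averaged less than 0.5 RPKM, among them the junction cadherin Cdh5 (0.00999 and 0.091 RPKM in libraries labelled Ad-KLK8 and Ad-control) and Pecam1 (0.0459 and 0.138 RPKM), so the labelled cell type was not borne out by its defining genes.

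The test was limma on log2(RPKM + 1) with Benjamini-Hochberg adjustment at 0.05 over all 11998 genes that averaged 0.5 RPKM or more, and every log2 change is Ad-KLK8 minus Ad-control on that scale. Most mitochondrial ribosomal protein genes were lower in libraries labelled Ad-KLK8. All 77 were tested, of which 49 fell, 9 rose and 19 did not pass. Over all tested genes 77.7% passed, of which 52.0% fell and 25.7% rose (shares of all tested), against 63.6% and 11.7% of the 77. The median log2 change was −0.32 for the 77 genes and −0.19 for all tested genes, and 47 of the 77 lay below the median of all genes. No test was made of the difference between these genes and the rest. Changes were moderate in size, from −0.97 to 0.63, so that no gene passed 2-fold on this scale, whereas 9.85% of tested genes fell and 2.35% rose by at least that much. The 4 Ad-KLK8 values all lay below the 4 Ad-control values in 48 of the 77 genes and all above them in 8, while this held for 49.1% and 23.1% of tested genes.

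The split depended on how the libraries were set on a common scale. Median-of-ratios scaling, which moves the median change of all tested genes to 0.00, left 39 genes lower and 20 higher (median −0.12), against 38.7% lower and 38.4% higher among all tested genes. The 39 were all among the 49 that fell as deposited, the 9 that rose all stayed higher, and 11 genes that had not passed were then called higher.

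**Figure D1:**
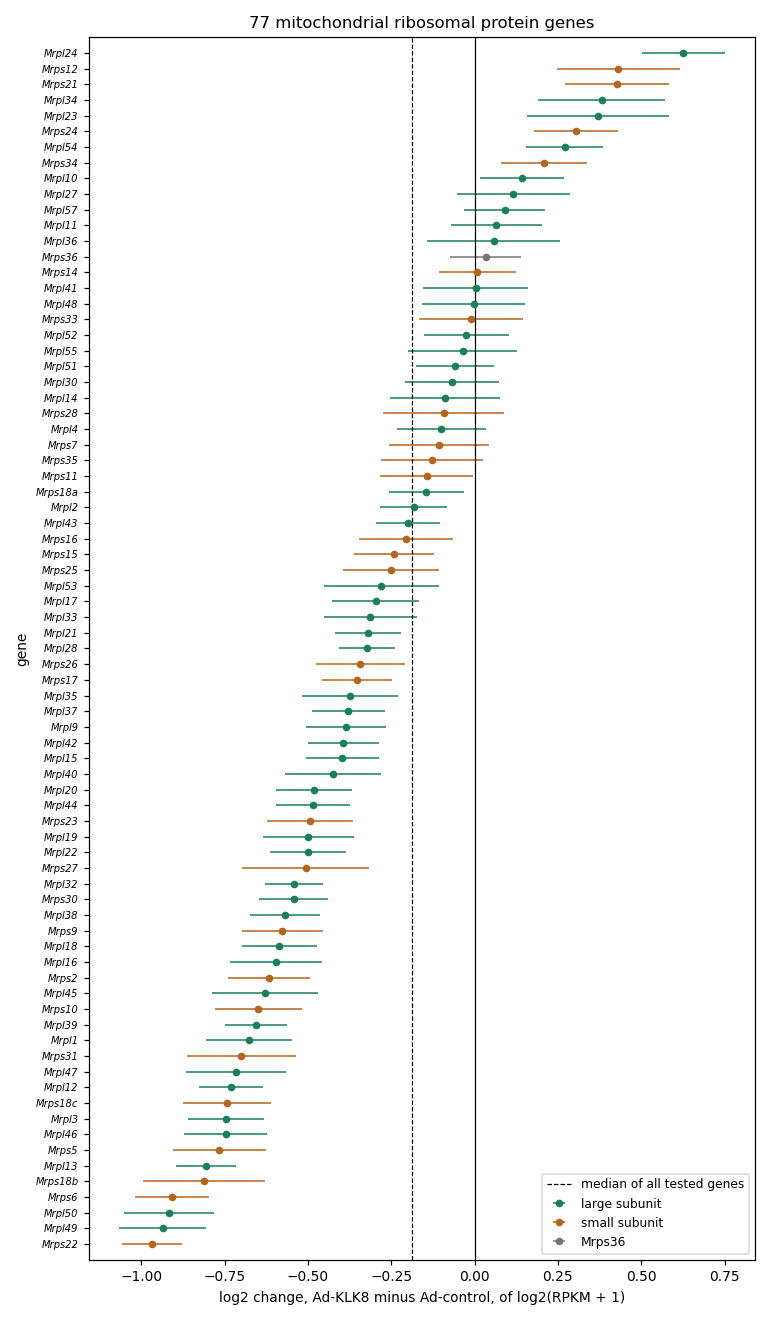
Log2 change (Ad-KLK8 minus Ad-control, log2(RPKM + 1) scale) of each of the 77 genes on the horizontal axis, with 95% confidence intervals from limma and the genes ordered by change on the vertical axis. Large subunit genes are green, small subunit genes brown and Mrps36 grey. The dashed line is the median of all tested genes (−0.19), and most points lie to the left of 0, from Mrps22 at −0.97 to Mrpl24 at 0.63.

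Fibroblast and mesothelial markers differed between the groups. Of 8 fibroblast markers 7 were higher in libraries labelled Ad-KLK8 and only Thy1 was lower, with a summed level of 3520 to 3632 RPKM in libraries labelled Ad-KLK8 and 1623 to 1846 RPKM in libraries labelled Ad-control. Of 6 mesothelial markers 5 were higher and the keratin gene Krt19 was lower, with sums of 644 to 711 RPKM in libraries labelled Ad-KLK8 and 198 to 255 RPKM in libraries labelled Ad-control. Of 3 tested leukocyte markers 2 were lower and none higher, and only 1 was lower after median-of-ratios scaling. Among all tested genes 52.0% were lower and 25.7% higher, or 38.7% and 38.4% after that scaling. The 10 endothelial markers summed to 4.70 to 6.32 RPKM in libraries labelled Ad-KLK8 and 5.93 to 7.20 RPKM in libraries labelled Ad-control. The epithelial marker Scgb1a1 was listed at 0 in every library. The part of these markers in the ribosomal protein changes was not tested, and in such bulk RNA fewer cells of a type and less RNA per cell cannot be told apart.

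The 77 genes covered a wide range of levels that broadly kept its order between the groups. Mean RPKM correlated across the 77 genes between Ad-KLK8 and Ad-control with a Spearman rho of 0.92, a description only, as genes are not independent replicates. The most abundant was Mrpl52, a mitochondria-specific large subunit protein, with 82.5, 97.0, 86.6 and 96.9 RPKM in Ad-KLK8 replicates 1 to 4, against 90.9, 97.0, 89.9 and 90.7 RPKM in Ad-control replicates 1 to 4. Its groups overlapped throughout (log2 change −0.02, limma adjusted p = 0.706), but it was called higher after median-of-ratios scaling (0.19). Mrpl33, a homolog of a small bacterial large subunit protein, was the third most abundant, with 54.2, 58.8, 61.0 and 51.0 RPKM in Ad-KLK8 replicates, against 64.9, 75.3, 70.3 and 69.8 RPKM in Ad-control replicates. Every Ad-KLK8 value was below every Ad-control value (log2 change −0.31, limma adjusted p = 0.00093), a call lost after median-of-ratios scaling (−0.10), and its exons overlap those of a noncoding gene on the same strand.

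At the low end stood Mrps25, a mitochondria-specific small subunit protein, with 2.11, 2.24, 1.91 and 1.96 RPKM in Ad-KLK8 replicates, against 2.90, 2.67, 2.36 and 2.61 RPKM in Ad-control replicates. The groups lay close together without overlap (log2 change −0.25, limma adjusted p = 0.00485), and this call too was lost after median-of-ratios scaling. Mrpl41, a mitochondria-specific large subunit protein, averaged 4.90 ± 0.567 RPKM in libraries labelled Ad-KLK8 and 4.87 ± 0.098 RPKM in libraries labelled Ad-control (SD, n = 4 each; log2 change 0.00, 95% interval −0.15 to 0.16), and did not pass. After median-of-ratios scaling Mrpl41 was called higher (0.19). Mrpl19, the homolog of a bacterial protein at the contact between the subunits, fell to 3.51 ± 0.153 RPKM in libraries labelled Ad-KLK8, against 5.39 ± 0.439 RPKM in libraries labelled Ad-control (log2 change −0.50, limma adjusted p = 2.56e-05).

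The median coefficient of variation of a member was 5.81% in Ad-KLK8 and 5.71% in libraries labelled Ad-control, and the widest were 15.8% for Mrpl23 in Ad-KLK8 and 14.3% for Mrpl36 in libraries labelled Ad-control. Over all genes Ad-KLK8 replicate 2 stood apart from the others of its group (chi-square per degree of freedom 18 to 19.6, against 2.12 to 2.63 among replicates 1, 3 and 4). Among the Ad-control replicates 1 and 3 differed by 2.45, and every pair with replicate 2 or 4 by 6.32 to 10.5. Ad-KLK8 replicate 2 held the highest value of its group in 30 of the 77 genes, against 39.9% of tested genes. Without it 51 of the 77 fell and 9 rose, and all 49 that had fallen were among the 51.

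**Figure D2:**
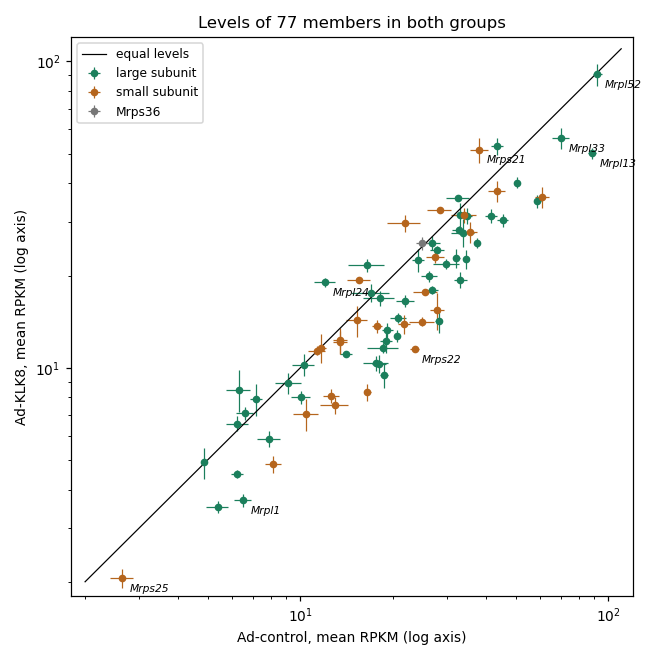
Mean RPKM in libraries labelled Ad-KLK8 (vertical, log axis) against Ad-control libraries (horizontal, log axis) for the 77 genes, with SD over 4 libraries as bars and large subunit, small subunit and Mrps36 by colour. Points below the line of equal levels are lower in Ad-KLK8; Mrps25 (2.05 and 2.64 RPKM in Ad-KLK8 and Ad-control) is the least and Mrpl52 (90.7 and 92.1 RPKM) the most abundant.

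The largest fall was that of Mrps22, a mitochondria-specific small subunit protein variants of which in people cause a combined respiratory chain deficiency. It had 11.3, 11.2, 11.6 and 11.9 RPKM in Ad-KLK8 replicates 1 to 4, against 22.8, 22.9, 23.7 and 24.5 RPKM in Ad-control replicates 1 to 4. The groups lay far apart, and the Ad-KLK8 mean was 0.49 of the Ad-control mean (log2 change −0.97 with SE 0.0402, limma adjusted p = 9.53e-09; −0.76 after median-of-ratios scaling). Mrpl50, a mitochondria-specific large subunit protein, had 9.20, 10.3, 9.997 and 8.33 RPKM in Ad-KLK8 replicates, against 18.9, 18.7, 19.2 and 17.9 RPKM in Ad-control replicates. The highest Ad-KLK8 value stayed well under the lowest Ad-control value (log2 change −0.92 with SE 0.0611, limma adjusted p = 2.27e-07; −0.71 after median-of-ratios scaling). The stretches of DNA before these 2 genes are shown because they hold the same letters as those before 2 genes that rose, a choice made after the values were seen. They come from RefSeq on GRCm38.p6, both on the minus strand, chr9:98601680-98601829 for Mrps22 and chr4:49521094-49521175 for Mrpl50, without the bases that any GENCODE exon covers. Capitals mark a ZNF143 motif, read as ACTACA, any 2 bases and TCCC (at −49 in Mrps22 and −82 in Mrpl50). They also mark CCGGAAG, an ETS motif of the kind that GABPA binds (at −11 in Mrps22). Positions are those of the first base of a motif, with −1 the last base before the annotated start. The last letter shown is base 1 before the start for Mrps22 and base 11 for Mrpl50.
Mrps22: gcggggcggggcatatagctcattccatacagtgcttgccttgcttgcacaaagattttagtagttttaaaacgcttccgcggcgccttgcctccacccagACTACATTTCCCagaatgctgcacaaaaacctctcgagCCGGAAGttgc
Mrpl50: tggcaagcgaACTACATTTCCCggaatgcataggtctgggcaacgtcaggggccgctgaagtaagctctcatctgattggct

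Mrpl49, another mitochondria-specific large subunit protein, had 13.7, 15.6, 15 and 12.7 RPKM in Ad-KLK8 replicates 1 to 4, against 28.4, 28.8, 28.0 and 27.1 RPKM in Ad-control replicates 1 to 4. No values overlapped (log2 change −0.94, limma adjusted p = 1.46e-07). Its exons overlap those of Syvn1 on the opposite strand. Whether the counting used strand is not given, so part of its reads may be those of its neighbour. Mrps6, homolog of a bacterial small subunit platform protein, had 8.17, 8.93, 8.5 and 7.67 RPKM in Ad-KLK8 replicates, against 17.1, 16.3, 16.3 and 16.2 RPKM in Ad-control replicates. Here too every Ad-KLK8 value was lower (log2 change −0.91, limma adjusted p = 5.81e-08), but Mrps6 shares exons with the inositol transporter gene Slc5a3 on the same strand and its value is uncertain. Mrpl13, homolog of a bacterial protein needed early in large subunit assembly and the second most abundant of the 77, had 49.4, 47.7, 51.5 and 51.9 RPKM in Ad-KLK8 replicates, against 87.2, 89.8, 85.5 and 91.3 RPKM in Ad-control replicates. The gap between the groups was many times their spread (log2 change −0.81, limma adjusted p = 3.04e-08). Mrpl13 overlaps Mtbp on the opposite strand.

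Against this direction 9 genes rose, 5 of the large and 4 of the small subunit. The largest rise was that of Mrpl24, homolog of a bacterial protein beside the exit of the peptide tunnel, with 18.2, 18.9, 19.8 and 19.3 RPKM in Ad-KLK8 replicates 1 to 4, against 12.9, 11.4, 12.7 and 11 RPKM in Ad-control replicates 1 to 4. The groups were separate (log2 change 0.63 with SE 0.0560, limma adjusted p = 2.11e-06; 0.83 after median-of-ratios scaling), and Mrpl24 overlaps Rrnad1 on the opposite strand. Mrpl34, homolog of a very short bacterial large subunit protein, had 20.7, 22.6, 20.7 and 22.4 RPKM in Ad-KLK8 replicates, against 16.8, 17.8, 18.1 and 13.3 RPKM in Ad-control replicates. Its lowest Ad-KLK8 value exceeded its highest Ad-control value (log2 change 0.38 with SE 0.0856, limma adjusted p = 0.00198). Their promoter stretches, chr3:87919356-87919505 for Mrpl24 and chr8:71464776-71464925 for Mrpl34, both on the plus strand of GRCm38.p6 in RefSeq, carry the ZNF143 letters at −137 in Mrpl24 and at −47 and −13 in Mrpl34. The ETS letters of Mrpl34 start at −37 and overlap the end of the ZNF143 match at −47, so that both stand in a single run of capitals. Further ZNF143 matches at −143 in Mrpl50 and −203 in Mrpl34 lie outside the stretches shown. The 150 bases before Mrps12, which rose more than Mrpl34, hold neither the ZNF143 nor the ETS letters and are not shown. The last letter shown is base 39 before the start for Mrpl24 and base 1 for Mrpl34.
Mrpl24: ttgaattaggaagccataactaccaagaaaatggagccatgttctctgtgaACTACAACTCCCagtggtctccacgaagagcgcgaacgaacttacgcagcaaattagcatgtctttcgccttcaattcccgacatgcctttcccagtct
Mrpl34: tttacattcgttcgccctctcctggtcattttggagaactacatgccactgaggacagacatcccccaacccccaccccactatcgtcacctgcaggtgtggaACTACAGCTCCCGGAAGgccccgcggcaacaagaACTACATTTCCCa

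Mrps12, homolog of the bacterial protein at the decoding centre where streptomycin resistance arises, had 26.8, 30.4, 30.4 and 30.7 RPKM in Ad-KLK8 replicates 1 to 4, against 23.0, 21.8, 24.3 and 18 RPKM in Ad-control replicates 1 to 4. The groups did not overlap, although replicate 1 of Ad-KLK8 lay nearer to the Ad-control values than the other 3 (log2 change 0.43, limma adjusted p = 0.000715). Mrps21, homolog of another bacterial small subunit protein, averaged 51.5 ± 4.89 RPKM in libraries labelled Ad-KLK8 and 38 ± 2.55 RPKM in libraries labelled Ad-control (SD, n = 4 each; log2 change 0.43, limma adjusted p = 0.000232). Mrpl23, at the tunnel exit like Mrpl24, averaged 8.48 ± 1.34 and 6.30 ± 0.572 RPKM in libraries labelled Ad-KLK8 and Ad-control (log2 change 0.37, limma adjusted p = 0.00461). Mrps24, a small subunit protein near the messenger RNA entry, averaged 19.3 ± 0.197 and 15.5 ± 1.31 RPKM in libraries labelled Ad-KLK8 and Ad-control (log2 change 0.30, limma adjusted p = 0.000569), but it shares exons with Urgcp on the same strand and is uncertain. The other 3 that rose were Mrpl54 (log2 change 0.27), Mrps34 (0.21) and Mrpl10 (0.14). Mrps34 shares exons with the kinase gene Nme3 on the same strand and is likewise uncertain. Mrpl10 was the least firm, with overlapping groups and a limma adjusted p of 0.0394. Its call was lost in the TPM fit, with the replicate number as a block, and without any 1 of the 4 Ad-KLK8 replicates or of Ad-control replicates 2 and 4.

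**Figure D3:**
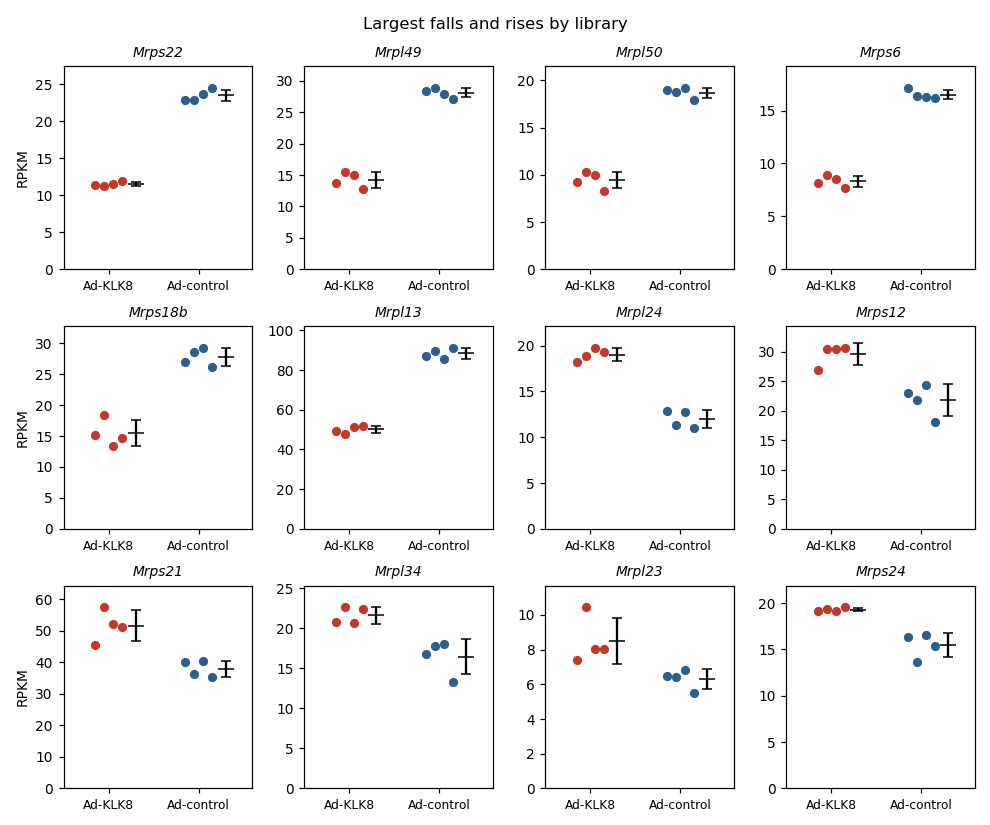
RPKM of the 6 genes with the largest fall and the 6 with the largest rise, 1 panel per gene, with Ad-KLK8 libraries in red on the left and Ad-control libraries in blue on the right; each point is a library and the black mark is the mean with SD (n = 4). No panel shows an overlap between the groups; Mrps22 reaches at most 11.9 RPKM in Ad-KLK8 and at least 22.8 RPKM in libraries labelled Ad-control.

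Both subunits held more falls than rises, as did all tested genes (52.0% against 25.7%), and neither the difference between the subunits nor that from all genes was tested. Of 50 large subunit genes 33 fell, 5 rose and 12 did not pass (median log2 change −0.35). Of 26 small subunit genes 16 fell, 4 rose and 6 did not pass (median −0.30), so that 61.5% fell and 15.4% rose. After median-of-ratios scaling 27 large subunit genes were lower and 13 higher, and 12 small subunit genes were lower and 6 higher. The 46 genes with bacterial homologs (28 lower, 7 higher, median −0.32) and the 30 classed as mitochondria-specific (21 lower, 2 higher, median −0.39) likewise held more falls than rises. Mrps18a and Mrps18b were counted among the 30, although they are paralogs of a bacterial protein whose position they do not take. The 16 small subunit genes with bacterial homologs came nearest to the shares of all genes among the 4 classes by subunit and homology, with 9 lower and 3 higher. After median-of-ratios scaling 23 of the 46 were lower and 11 higher, and 16 of the 30 were lower and 8 higher. Mrps36, a name for a protein that later structures place in the 2-oxoglutarate dehydrogenase complex and not in the ribosome, was kept apart from both subunits. It averaged 25.5 ± 1.18 RPKM in libraries labelled Ad-KLK8 and 24.9 ± 1.17 RPKM in libraries labelled Ad-control (limma adjusted p = 0.541) and was called higher after median-of-ratios scaling.

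The proteins were also grouped by their place in the ribosome. Among all tested genes 52.0% fell and 25.7% rose, or 38.7% and 38.4% after median-of-ratios scaling. None of these small groups was tested against those shares. Of the 6 proteins of the central protuberance, which faces the small subunit at the top of the large one, 4 fell and 2 did not pass. Of the 5 around the peptidyl transferase centre, the site of peptide bond formation, 3 fell and 2 did not pass. None rose in these groups as deposited, but 2 of the 6 and 1 of the 5 were called higher after median-of-ratios scaling. At the rim of the peptide exit 4 fell (among them Mrpl45, which anchors the ribosome to the inner membrane, log2 change −0.63) and 2 rose, Mrpl23 and Mrpl24. After median-of-ratios scaling 3 of these 6 were lower and 2 higher. In the stalk that recruits translation factors and its base, Mrpl12 fell, Mrpl10 rose and Mrpl11 did not pass. After median-of-ratios scaling Mrpl12 was lower, and Mrpl10 and Mrpl11 were higher. Mrpl1, of the separate L1 stalk, fell (log2 change −0.68) and stayed lower after that scaling. Mrpl12, the stalk protein that also binds the mitochondrial RNA polymerase, had 32.9, 35.8, 36.8 and 34.7 RPKM in Ad-KLK8 replicates 1 to 4, against 57.4, 59.7, 57.4 and 60.5 RPKM in Ad-control replicates 1 to 4. The groups were wide apart (log2 change −0.73, limma adjusted p = 8.99e-08), whereas Mrpl10, the base to which it binds, was the weakest of the rises. Around the decoding site and the tRNA path of the small subunit 2 of 5 fell, 1 rose (Mrps12) and 2 did not pass, with the same counts after median-of-ratios scaling.

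Mrps18a, Mrps18b and Mrps18c are 3 paralogs of a single bacterial small subunit protein, of which Mrps18c takes the bacterial position, Mrps18b another place in the small subunit and Mrps18a a place in the large subunit. All 3 fell as deposited, by unequal amounts, although the sign of Mrps18a turned with upper-quartile, quantile and median-of-ratios scaling. Mrps18b had 15.2, 18.5, 13.4 and 14.7 RPKM in Ad-KLK8 replicates 1 to 4, against 27.0, 28.6, 29.3 and 26.1 RPKM in Ad-control replicates 1 to 4. Mrps18c had 35.4, 40.1, 35.5 and 33.1 RPKM in Ad-KLK8 replicates, against 58.2, 64.9, 58.7 and 62.0 RPKM in Ad-control replicates. In neither gene did the groups come near each other (log2 changes −0.81 and −0.74, limma adjusted p = 5.64e-06 and 9.1e-07). Mrps18a had 33.0, 32.9, 30.4 and 29.0 RPKM in Ad-KLK8 replicates, against 34.9, 36.4, 34.2 and 33.3 RPKM in Ad-control replicates. Its groups nearly touched (log2 change −0.14, limma adjusted p = 0.022), and its sign turned to 0.07 after median-of-ratios scaling, where it did not pass (adjusted p = 0.238). The call was also lost without Ad-KLK8 replicate 3, without Ad-KLK8 replicate 4 and without Ad-control replicate 2 (limma adjusted p = 0.0598, 0.0699 and 0.0611). The difference in change between the paralogs was not tested.

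A pair of proteins with a known second role fell as well. Mrps30, found in the large subunit in spite of its name and known in chicken as a pro-apoptotic protein, fell to 18 ± 0.582 RPKM in libraries labelled Ad-KLK8, against 26.6 ± 1.40 RPKM in libraries labelled Ad-control (SD, n = 4 each; log2 change −0.54, limma adjusted p = 1.48e-06). Mrpl58, which releases stalled peptides, stands in the table under its older symbol Ict1 and so outside the name rule. It fell to 18.2 ± 1.22 RPKM in libraries labelled Ad-KLK8, against 22.3 ± 1.55 RPKM in libraries labelled Ad-control (log2 change −0.28, limma adjusted p = 0.00158), a call lost after median-of-ratios scaling. Of 5 further subunits with other names 4 fell and 1 rose, where 52.0% of all tested genes fell and 25.7% rose. After median-of-ratios scaling 1 of the 5 was lower and 1 higher (median log2 change 0.003). Ptcd3, an RNA-binding small subunit protein, fell to 10.03 ± 0.443 RPKM in libraries labelled Ad-KLK8, against 19.5 ± 0.931 RPKM in libraries labelled Ad-control (log2 change −0.89, limma adjusted p = 5.62e-08). Aurkaip1, Chchd1 and Dap3 fell by less (−0.21, −0.30 and −0.15), calls lost after median-of-ratios scaling, and Gadd45gip1, a large subunit protein, rose (0.17).

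Mrpl46 and Mrps11 lie head to head on chromosome 7 and were singled out after their values were seen. Mrpl46, of the central protuberance, averaged 10.3 ± 0.706 RPKM in libraries labelled Ad-KLK8 and 18 ± 0.919 RPKM in libraries labelled Ad-control (SD, n = 4 each; log2 change −0.75, limma adjusted p = 5.73e-07). Mrps11, of the small subunit platform, averaged 12.1 ± 1.05 RPKM in libraries labelled Ad-KLK8 and 13.5 ± 0.730 RPKM in libraries labelled Ad-control (log2 change −0.14, limma adjusted p = 0.0571). The ratio of Mrpl46 to Mrps11 was 0.882, 0.832, 0.830 and 0.865 in Ad-KLK8 replicates 1 to 4, against 1.33, 1.41, 1.38 and 1.22 in Ad-control replicates 1 to 4, and these ratios did not overlap. The exons of the pair overlap in some transcripts on opposite strands, so that their reads may not be fully separate. Only 29 bases between their starts lie in no GENCODE exon, chr7:78783090-78783118 of GRCm38.p6, shown on the minus strand to set out how close the starts are. They hold none of the motifs below, so no base is in capitals.
Mrpl46 and Mrps11: gcccctcgccggcccgcgttgcctcatgg

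Promoter letters were counted in RefSeq windows of 250 bases before and 50 after the annotated start, which 68 of the 77 genes had. Both strands were read for GCGCA, any base and GCGC (NRF-1), CCGGAAG (ETS, GABPA), AAGATGGC (YY1), CACGTG (E-box, the site of MYC and its relatives) and the ZNF143 letters given above. A window could hold several of them, and matches may overlap. NRF-1, GABPA and YY1 are known as activators of nuclear genes for mitochondria. Letters of at least 1 of these 3 stood in 42 of the 68 windows (61.8%), against 33.0% of 9631 tested genes and 16.4% of all 27025 genes with a window. The ETS letters were the most frequent, in 25 of 68 (36.8%, against 20.4% of tested genes), followed by NRF-1 in 13 (19.1%, against 11.8%) and YY1 in 12 (17.6%, against 5.34%). E-box letters stood in 5 (7.35%, against 11.9%). By direction, ETS letters stood in 3 of 7 windows of genes that rose, 16 of 45 of genes that fell and 6 of 16 of genes that did not pass. In the same order NRF-1 letters stood in 1, 9 and 3 of these windows, and YY1 letters in 2, 7 and 3. The median log2 change of members with and without the letters was −0.28 and −0.39 for ETS, −0.39 and −0.32 for NRF-1, and −0.26 and −0.33 for YY1. ZNF143 letters were in 5 windows (7.35%, against 4.96% of tested genes), those of Mrps22, Mrpl50 and Mrpl42, which fell, and of Mrpl24 and Mrpl34, which rose. A match of letters is not a bound site, and no test was made of these shares or medians.

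Nuclear regulators of mitochondrial genes were counted as a further list. All 8 tested of this list fell, also after median-of-ratios scaling, with a median log2 change of −0.59. Among all tested genes 52.0% were lower (median −0.19), or 38.7% after that scaling, and the list was not tested against these shares. Myc, the growth transcription factor, fell to 12.4 ± 2.67 RPKM in libraries labelled Ad-KLK8, against 44.4 ± 2.06 RPKM in libraries labelled Ad-control (SD, n = 4 each; log2 change −1.78, limma adjusted p = 1.37e-07). Gabpb1, the partner of the ETS factor GABPA, fell to 4.12 ± 0.396 RPKM in libraries labelled Ad-KLK8, against 10.5 ± 0.517 RPKM in libraries labelled Ad-control (log2 change −1.17, limma adjusted p = 5.62e-08). Pprc1, a coactivator of the PGC-1 family, and Esrra, an orphan nuclear receptor, fell by 0.66 and 0.46 on the log2 scale. Ppargc1a, the founder of the PGC-1 family, averaged less than 0.5 RPKM and was not tested.

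Genes that build and serve the mitochondrial ribosome also held more falls than rises, as did all tested genes (52.0% lower and 25.7% higher, or 38.7% and 38.4% after median-of-ratios scaling). No list below was tested against these shares. Of 27 genes of assembly and ribosomal RNA modification none rose and 18 fell (median −0.32), while 12 were lower and 3 higher after median-of-ratios scaling. Gtpbp10, a GTPase of large subunit assembly, fell to 3.04 ± 0.319 RPKM in libraries labelled Ad-KLK8, against 8.84 ± 1.02 RPKM in libraries labelled Ad-control (SD, n = 4 each; log2 change −1.28, limma adjusted p = 1.89e-07). Of 15 translation factors 10 fell and 2 rose (median −0.25), and 6 were lower and 4 higher after median-of-ratios scaling. The elongation factor Gfm1 fell (−0.69), as did Lrpprc, which stabilises mitochondrial messages (−0.79), and the release factor Mtrf1l (−0.89). The 2 that rose were Oxa1l, the inner membrane insertase (0.34), and Mrrf, the ribosome recycling factor (0.27).

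Of 20 mitochondrial aminoacyl-tRNA synthetases and related genes, which charge mitochondrial tRNAs, 10 fell, a share near that of all genes, and 2 rose (median −0.21), and 9 were lower and 6 higher after median-of-ratios scaling. Yars2, for tyrosine, fell to 6.57 ± 0.605 RPKM in libraries labelled Ad-KLK8, against 13.9 ± 0.693 RPKM in libraries labelled Ad-control (SD, n = 4 each; log2 change −0.98, limma adjusted p = 1.8e-07). Of 12 genes for maintenance and transcription of mitochondrial DNA 8 fell and 1 rose (median −0.27), and 4 were lower and 2 higher after median-of-ratios scaling. Tfam, which packs that DNA and starts its transcription, fell to 7.11 ± 0.669 RPKM in libraries labelled Ad-KLK8, against 16.4 ± 0.846 RPKM in libraries labelled Ad-control (log2 change −1.10, limma adjusted p = 8.01e-08). Of 21 genes for protein import 16 fell and none rose (median −0.56), and 13 were lower and 2 higher after median-of-ratios scaling. Among them Hspa9, the matrix chaperone that pulls proteins in, fell to 147 ± 8.56 RPKM in libraries labelled Ad-KLK8, against 362 ± 9.28 RPKM in libraries labelled Ad-control (log2 change −1.30, limma adjusted p = 4.93e-09). Of 13 messages encoded in mitochondrial DNA, which this ribosome translates, 0 were found by symbol or gene number among the deposited genes, so none was analysed.

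**Figure D4:**
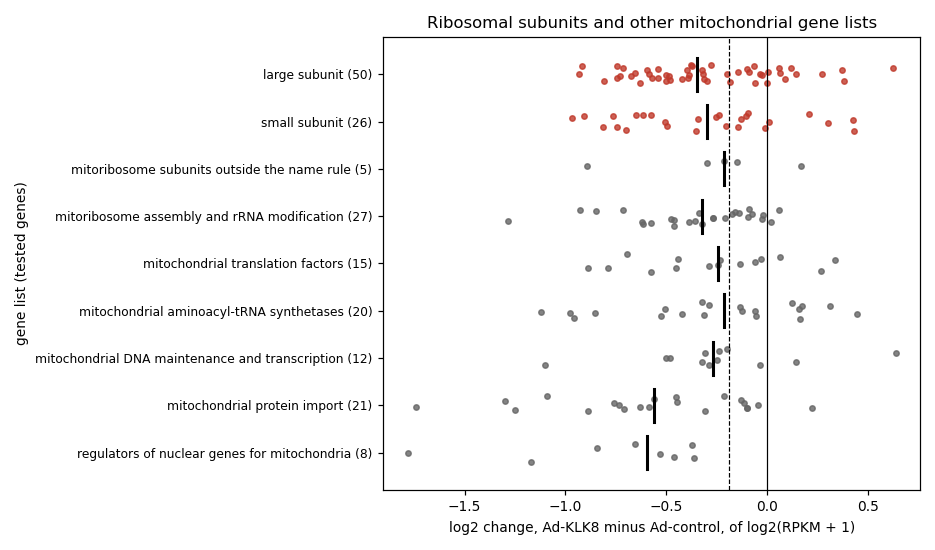
Log2 change (Ad-KLK8 minus Ad-control, log2(RPKM + 1) scale) of each tested gene in 9 gene lists, with ribosomal subunits in red, other lists in grey, a black bar at the median of each list and the number of tested genes in brackets. The dashed line is the median of all tested genes (−0.19); medians run from −0.21 to −0.59 in these lists.

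Summed over the 77 genes, the level was 1526, 1600, 1554 and 1541 RPKM in Ad-KLK8 replicates 1 to 4, against 1933, 1934, 1934 and 1883 RPKM in Ad-control replicates 1 to 4. The sums did not overlap. They made up 0.40% ± 0.0058 of all RPKM in libraries labelled Ad-KLK8 and 0.511% ± 0.0064 in libraries labelled Ad-control (SD, n = 4 each). Linear scaling of a library changes the sums but not this share, which in turn falls when other genes rise. All tested genes summed to 385378 to 393814 RPKM in libraries labelled Ad-KLK8, against 373631 to 376098 RPKM in libraries labelled Ad-control. The ratio of the summed large to the summed small subunit genes was 2.22 ± 0.027 in Ad-KLK8 and 2.30 ± 0.036 in libraries labelled Ad-control.

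Other counts were found for the 2 gene groups nearest in function. Beside them, 52.0% of all tested genes fell and 25.7% rose (median −0.19). After median-of-ratios scaling these shares were 38.7% and 38.4% (median −0.002). Of 81 tested genes of the cytosolic ribosome 19 fell and 9 rose (median −0.05), and after median-of-ratios scaling 1 was lower and 47 were higher (median 0.17). Cytosolic ribosomal protein genes are highly abundant and have many processed pseudogenes, so their single values are uncertain. Their summed RPKM was 23.3 times that of the 77 genes in libraries labelled Ad-KLK8 and 19.5 times in libraries labelled Ad-control. Of 74 nuclear genes for oxidative phosphorylation subunits, the complexes in which the products of the mitochondrial ribosome are built in, 15 fell and 27 rose (median 0.04), and 3 were lower and 55 higher after median-of-ratios scaling (median 0.25). Neither the difference between these groups and the 77 genes nor that from all tested genes was tested.

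**Figure D5:**
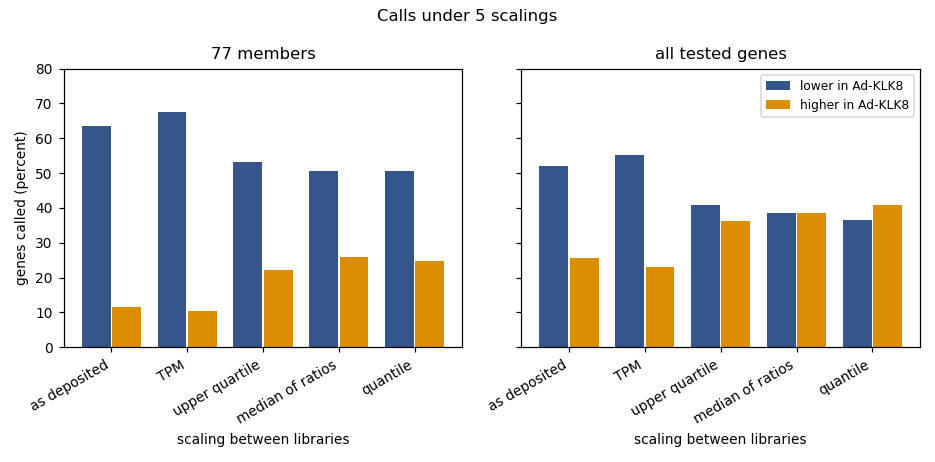
Percent of genes called lower (blue) and higher (orange) in Ad-KLK8 under 5 scalings between libraries, for the 77 genes on the left and all 11998 tested genes on the right. Bars start at 0. Of the 77 genes 63.6% were lower and 11.7% higher as deposited, and 50.6% were lower and 26.0% higher with median-of-ratios scaling, under which 38.7% of all tested genes were lower and 38.4% higher.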

How the data were processed

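RNA was measured in 8 mouse libraries made from TRIzol-extracted total RNA with a stranded mRNA kit, per the labels' protocols. The authors deposited RPKM values for 21878 genes. Trimmomatic, HISAT2, SAMtools, Cufflinks and DESeq are named without versions, per the submitters' processing notes, and so is the human build GRCh38, although the gene symbols are those of mouse. No coordinates were therefore taken from the table, and how reads of overlapping genes or gene families were assigned is not recorded in those notes.

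The members and gene lists were chosen with earlier results of these data known. For each of the 17461 genes above 0, reads were recovered as the smallest whole numbers that give the deposited values (tolerance 0.001 read). A floor of 3 reads corresponds to 0.160 to 0.190 RPM, depending on the library. The median was 563 reads per tested gene and library, and counting error is part of the spread between replicates. limma 3.58.1 in R 4.3.3 (lmFit, eBayes with trend, two-sided) was run on log2(RPKM + 1) over all 11998 genes that averaged 0.5 RPKM or more, with group as the only term and p-values adjusted over all of them. Changes of low genes are understated on this scale. Klk8 was tested by exact permutation. Python 3.11.15 with pandas 2.3.3 and scipy 1.17.1 was used for tables.

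Genes named with values are the 6 largest rises and 6 largest falls that also passed after median-of-ratios scaling, the 3 most and 3 least abundant, and Mrps18a, Mrps18b, Mrps18c, Mrps30, Mrpl12, Mrpl58, Mrpl13 and Mrps12, with up to 4 genes of each other list by smallest adjusted p and all 5 subunits that have other names. Genes outside this rule were named after their values were seen (Mrpl1, Mrpl10, Mrpl11, Mrpl36, Mrpl54, Mrps34, Mrpl45, Mrpl42, Mrps36, Mrpl46, Mrps11, Oxa1l, Mrrf and Ppargc1a). Promoters are RefSeq sequences on GRCm38.p6, and exon overlaps come from GENCODE M21. Motifs were kept from a longer set of letter patterns, and the ZNF143 pattern was added after the printed windows were seen. Alternatives were other pseudocounts (0.1 and 0.5), other filters (none, or a mean of 5 RPKM), median-of-ratios, upper-quartile or quantile scaling, TPM, limma without trend or with a robust prior, limma voom on the recovered reads, a replicate block, and the omission of each library. In 30 of the 77 genes an exon overlaps another gene, and 4 have a pseudogene named after them.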

Additional observations from a re-analysis of the deposited data

Results flagged for a closer look

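In 4 of the 46 groups of 4 libraries examined, 1 library lay farther from the others than Dixon's 95% limit allows, where chance alone gives about 1 in 20. Mrps6 had 17.1 RPKM in Ad-control replicate 1, with the others of its group at 16.2 to 16.3 RPKM. Mrps12 had 26.8 RPKM in Ad-KLK8 replicate 1, with the others at 30.4 to 30.7 RPKM. Mrpl52 had 97.0 RPKM in Ad-control replicate 2, with the others at 89.9 to 90.9 RPKM. Klk8 had 3263 RPKM in Ad-KLK8 replicate 2, with the others at 1159 to 1354 RPKM. The calls of Mrps6 and Mrps12 held without any single library.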

How the results depend on the processing

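Scaling between libraries moved the results. Members called higher numbered 9 as deposited, 17 with scaling to the upper quartile, 20 to the median of ratios and 19 to common quantiles, and the median log2 change of −0.32 became −0.38 with TPM, −0.15, −0.12 and −0.12. The median of all tested genes was −0.19 as deposited, −0.25 with TPM, −0.03, 0.00 and 0.03, so the median of the 77 genes stayed below it under each. Among all tested genes 4892 were called higher with quantile scaling (3079 as deposited), and 4091 lower with a minimum mean of 5 RPKM (6243 as deposited), where fewer genes are tested. The sign of Mrpl52 turned with upper-quartile (0.15) and median-of-ratios (0.19) scaling, that of Mrps18a with the same 2 (0.031 and 0.069) and with quantile scaling (0.0084), that of Mrps25 with quantile scaling (0.075) and that of Mrpl41 with TPM (−0.043). The cause was not tested. Of 22 named genes, 16 kept direction and side of the threshold in every alternative run for them, which was 20 for each but Mrpl19, with 19 since the stricter filter removed it.

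Leaving out each library in turn gave 8 to 9 members higher, 48 to 51 lower and a median of −0.35 to −0.31. Without single libraries the change of Mrpl52 ran from −0.058 to 0.019, that of Mrpl41 from −0.038 to 0.071 and the difference of Klk8 from −0.036 to 0.46. The replicate number as a block gave 8 members higher and 49 lower, against 9 and 49 without it. Same-numbered libraries did not deviate together (correlations of −0.091 to 0.011), so the numbers were not taken as a pairing. limma voom on the recovered reads gave 9 higher and 49 lower. Each member had at least 112 reads in every library, whereas 8 of 10 endothelial markers were too low to test.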
